A study of Vitis vinifera with 12 samples.

Results

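Gene expression in berries of Flame Seedless, a red table grape that forms no full seeds, was compared between 80 and 50 days after full bloom. The comparison rests on 6 of the 12 libraries of the study, 3 from fruit at 50 days and 3 from fruit at 80 days. The other 6, from fruit at 40 and 60 days, were used for the estimate of the spread and for the course of each gene model. All libraries come from fruit of this cultivar; the labels name no treatment and no part of the fruit. The labels describe 3 biological replicates whose RNA was combined after extraction, so it is not known whether the libraries lettered a, b and c at an age stand for separate plants. The spread behind the p-values is that between the libraries, and it may be technical.

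A grape berry grows in a first phase of cell division and expansion, pauses, and then enters ripening at the stage called veraison. Through veraison and ripening the berry softens, imports sugar and stores it as hexoses, loses malic acid and, in red cultivars, makes anthocyanin pigments in the skin. Abscisic acid is the hormone most closely linked to the start of ripening in this fruit, which does not ripen by a burst of ethylene. The labels give ages and no stage, so the ages are not named by stage here.

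Levels are FPKM, fragments counted on a gene model, scaled by its length and by the mapped total of the library. Of 22580 gene models in the table, 13699 reached 1 FPKM in 3 or more of the 6 libraries and were tested. Differences are on the log2(FPKM + 1) scale, which understates the change of low gene models. A gene model was called a rise or a fall when limma's adjusted p was under 0.05 and the difference was 1 or more in size. The table pairs no identifier with a gene name. None (0 of 22580) was found among the 29591 genes that RefSeq lists for assembly ASM3070453v1, so no product, position or role is given. The labelled tissue could not be checked against marker genes for the same reason. Up to 2 rises and 2 falls are printed by identifier, and the rest is described by level, size of change, course and place in the identifier order.

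The 6 libraries separated by age and held similar numbers of detected gene models. Pearson correlations across gene models (not independent replicates of an age) were 0.977 to 0.980 within 50 days, 0.977 to 0.982 within 80 days and 0.918 to 0.944 between the ages. Gene models at 1 FPKM or more numbered 13611 ± 260.1 (SD, n = 3) at 50 days and 13354 ± 202 at 80 days (two-sided exact permutation test, p = 0.2 and 0.6 when adjusted). The share of summed FPKM held by the 1000 most abundant gene models was 72.1% ± 1.78 at 50 days and 72.6% ± 1.44 at 80 days (p = 0.7 in the same exact test and 0.8 when adjusted). The values were adjusted over the 6 library measures compared, and 3 libraries against 3 cannot give a p under 0.1.

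Between these ages 451 gene models were called as rises and 831 as falls. These are 3.29% and 6.07% of the gene models tested, 9.36% together (limma, at the threshold just given). The median change was 1.40 among the rises and -1.43 among the falls, against 0.02 over all gene models tested. With a log2 difference of at least 2 there were 110 rises (0.803% of the gene models tested) and 166 falls (1.21%), with at least 3 there were 45 and 37, with at least 4 there were 18 and 13, and with at least 5 there were 6 and 4. One run of 10 neighbouring identifiers, in the block VIT_12s0057, gave 9 of the rises of at least 3. Outside it 36 rises and 37 falls reached 3, 10 and 13 reached 4, and 2 and 4 reached 5. In bulk fruit, fewer cells of a type and less RNA per cell cannot be told apart.

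The excess of falls depended on the minimum difference. Without it, 5869 gene models passed the adjusted p, 42.8% of those tested, of which 3156 were higher and 2713 lower at 80 days. Thus 53.8% of these calls were rises, against 35.2% with the minimum of 1. In 437 of the 451 rises and 807 of the 831 falls, no library of one age reached the range of the other, and this held for 51.0% of all gene models tested. The calls were made on these same libraries, so the high share among them follows largely from the selection.

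**Figure D1:**
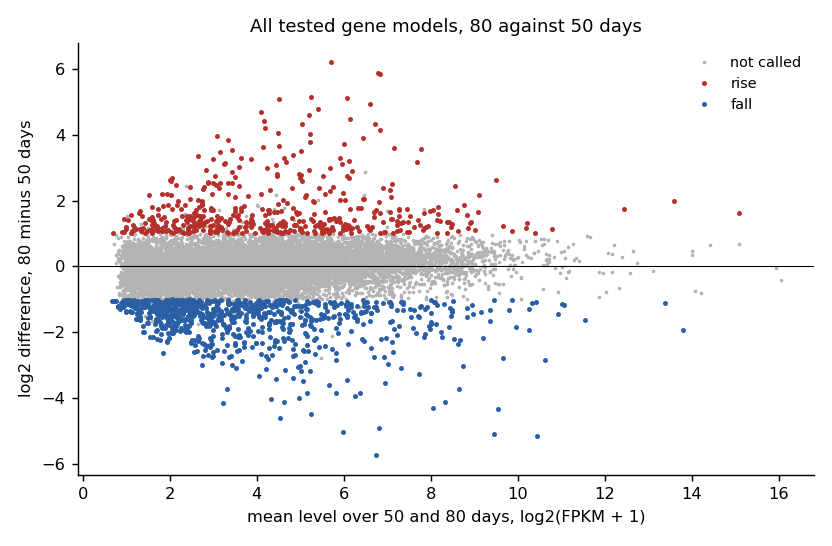
The log2 difference of each tested gene model, 80 minus 50 days (vertical axis), against its mean level over both ages as log2(FPKM + 1) (horizontal axis), with rises in red, falls in blue and gene models not called in grey. The 451 rises and 831 falls lie at all levels, and the falls crowd at the lower levels with differences between -1 and -3.

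The largest rise was that of VIT_14s0006g02950, a gene model near zero until 50 days. Its FPKM at 50 days was 0.166 in library a, 0 in library b and 0.306 in library c, and at 80 days it was 128, 30.2 and 147. All 80-day libraries stood far above all 50-day libraries, with library b the lowest of its age. The log2 difference was 6.19 ± 0.451 (SE; limma adjusted p = 2.42e-05). At 60 days the 3 libraries were already at 59.6, 65.3 and 73.4 FPKM, and at 40 days they were at 0.134, 0 and 0.230. The step from 60 to 80 days less that from 50 to 60 days was -5.53 ± 0.781 on the log2 scale (limma adjusted p = 0.00569), and the 60-day values lay within the range of the 80-day libraries.

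The next largest rise was that of VIT_12s0057g00100. It stood at 1.37, 2.05 and 4.42 FPKM in libraries a, b and c at 50 days and at 247, 107 and 297 FPKM at 80 days. The ages did not overlap, and library b was again the lowest at 80 days. The log2 difference was 5.88 ± 0.382 (limma adjusted p = 1.91e-05). Levels of 108, 97.0 and 99.1 FPKM at 60 days came before a further step of 0.96 ± 0.382 that did not pass the test (adjusted p = 0.0945).

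VIT_13s0064g01260 is one of the 100 most abundant gene models over the 6 libraries, and it fell. At 50 days it stood at 2543, 2137 and 3374 FPKM in libraries a, b and c, and at 80 days at 176, 68.6 and 32.5 FPKM. The log2 difference was -5.15 ± 0.536 (limma adjusted p = 8.35e-05), and the ages did not overlap. Its fall was spread over the whole period, with 5679, 4404 and 5079 FPKM at 40 days and 589, 257 and 815 FPKM at 60 days. The steps of -2.40 ± 0.536 from 50 to 60 days and -2.74 ± 0.536 from 60 to 80 days both passed the test (adjusted p = 0.014 and 0.00678), and their difference of -0.34 ± 0.929 did not (adjusted p = 0.854).

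VIT_00s2887g00010 had the largest fall by the fitted difference, -5.72 ± 1.80 (limma adjusted p = 0.0254), and very uneven libraries. It stood at 371, 242 and 21.4 FPKM in libraries a, b and c at 50 days and at 0.894, 3.06 and 0.785 FPKM at 80 days. The groups did not overlap, but library c at 50 days lay more than 10 times below the others of its age. At 40 days the libraries were at 1.33, 1.88 and 298 FPKM and at 60 days at 249, 254 and 13.1 FPKM, so low and high libraries occurred within 3 of the 4 ages. The call was lost without 50-day library a (adjusted p = 0.0857), 50-day library b (0.0708), 80-day library a (0.0585) or 80-day library c (0.0717). Gene models as uneven as this were few: a range of at least 3 log2 units within either age was seen in 77 of the 13699 tested and in 12 of the 1282 called. Smaller unevenness was common among the calls. A range of at least 1 log2 unit, the minimum difference of a call, was seen in 410 of the 1282 called and in 1382 of the 13699 tested. At 2 log2 units these numbers were 52 and 238. At each of these limits the share was higher among the called than among all tested.

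**Figure D2:**
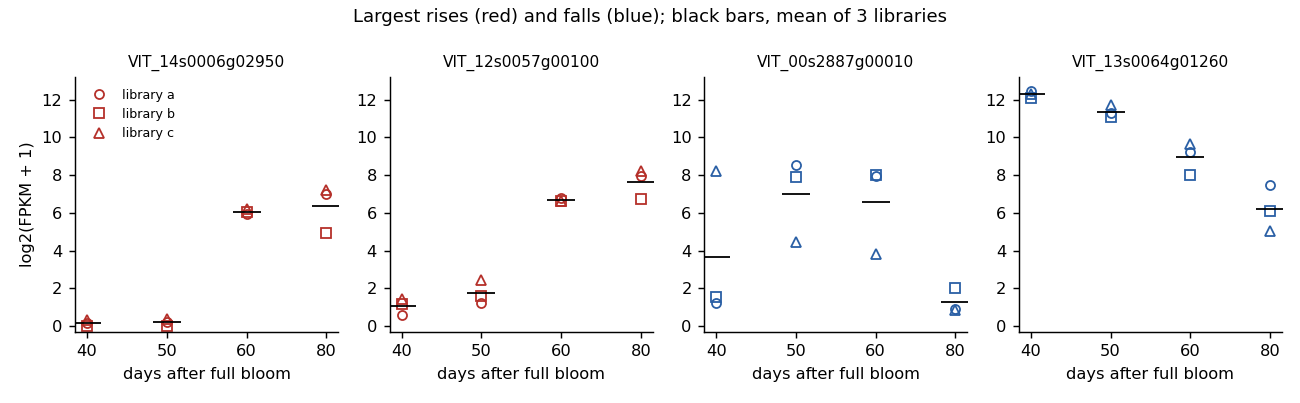
Levels as log2(FPKM + 1) (vertical axis) of the 2 largest rises (red) and 2 largest falls (blue) in each library at 40, 50, 60 and 80 days, spaced evenly, with circles, squares and triangles for libraries a, b and c and black bars for the mean of 3 libraries. Both rises step up between 50 and 60 days, VIT_13s0064g01260 falls at each age, and VIT_00s2887g00010 splits into high and low libraries at 40, 50 and 60 days.

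The 12 largest rises and the 12 largest falls by the same rule are described together; the size of change that chose them also limits where they can start. The rises began from means of 0.157 to 4.64 FPKM at 50 days and reached 31.8 to 223 FPKM at 80 days. The falls began from 16.5 to 2685 FPKM and ended at 92.5 FPKM or less. Their fitted differences had sizes of 4.41 to 6.19 for the rises and 4.10 to 5.72 for the falls. The midpoint of the log2 change had been passed at 60 days by 11 of the 12 rises and by 6 of the 12 falls, against 221 of all 451 rises and 452 of all 831 falls. Of the 12 rises, 7 belong to the run of neighbouring identifiers described next, and 4 of the other 5 had passed the midpoint. Library b was the lowest of the 80-day libraries in 11 of the 12 rises and in 4 of those 5. Over all 451 rises it was the lowest of its age in 194.

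A run of 10 neighbouring tested identifiers in the block VIT_12s0057, which includes VIT_12s0057g00100, rose together. Their median level was 3.14, 4.08 and 3.54 FPKM in libraries a, b and c at 50 days and 160, 60.6 and 181 FPKM at 80 days. Library b at 80 days was the lowest of its age in each of the 10. The median log2 difference was 4.70, with a range of 2.68 to 5.88, and the highest adjusted p among them was 0.000412 (limma). At 60 days the medians were 89.7, 66.1 and 66.3 FPKM. The step from 50 to 60 days was called in each of the 10 (limma). The step from 60 to 80 days was called in 0 of them (limma), with an unadjusted p under 0.05 in 3 and a higher mean at 80 days in 10. Because neighbouring and similar gene models can share reads, the levels of single members are uncertain. Of the 73 tested identifiers in this block, 12 rose and 4 fell, where 3.29% and 6.07% of all gene models did. The 12 rises include the 10 of the run, so the share of rises in the block is set mostly by how the run was chosen. The run was singled out after its values were seen.

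Other runs were shorter. A run of 4 falls in the block VIT_08s0007 had medians of 348, 478 and 440 FPKM at 50 days and 91.2, 41.9 and 16.3 FPKM at 80 days, with a median log2 difference of -2.84. Its libraries did not overlap at these medians, and the 40-day medians of 116 to 134 FPKM lay below the 50-day ones. In the last member by identifier order the ages did overlap, with 525 FPKM in 50-day library a and 545 FPKM in 80-day library a. At 60 days the medians were 49.9, 22.5 and 77.3 FPKM, a range that overlapped that of 80 days. A run of 4 falls in the block VIT_04s0210 went from medians of 7.72 to 13.0 FPKM to 3.34 to 5.89 FPKM, with a median log2 difference of -1.44. Runs of exactly 3 numbered 3 for rises and 6 for falls.

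**Figure D3:**
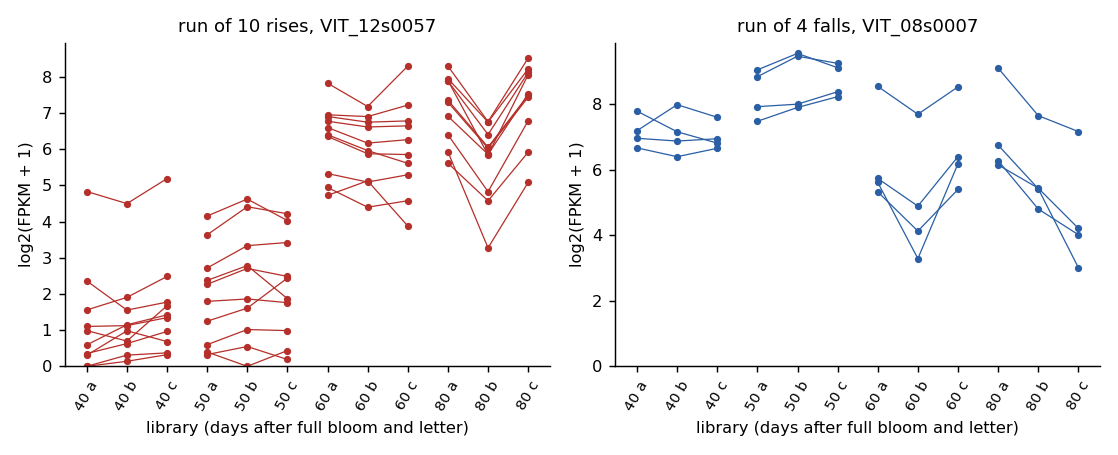
Levels as log2(FPKM + 1) (vertical axis) of each member of the run of 10 rises in VIT_12s0057 (left, red) and of the run of 4 falls in VIT_08s0007 (right, blue) in the 12 libraries (horizontal axis); lines join the libraries of 1 age. The run of 10 steps up between 50 and 60 days and is lowest in library b among the 80-day libraries, and the mean of each member of the run of 4 is highest at 50 days.

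As sets, the falls gave up about as large a share of the summed FPKM as the rises gained. The 831 falls had a median level of 14.9, 12.7 and 14.5 FPKM in the 50-day libraries a, b and c and 3.99, 3.66 and 2.90 FPKM in the 80-day libraries. The 451 rises had 7.23, 6.89 and 5.15 FPKM at 50 days and 25.2, 27.2 and 28.9 FPKM at 80 days. These levels chose the sets, so they and the shares that follow are given as a description. The shares of a library have a fixed total, so a loss in a set raises the shares of the other gene models. The falls held 10.8% ± 0.686 of the summed FPKM of a library at 50 days and 3.28% ± 0.331 at 80 days. The rises held 3.72% ± 0.230 and 11.002% ± 0.440. A few gene models carried these sums: the 10 most abundant rises made up 66.3% to 74.9% of the set's sum in the 80-day libraries, and the 10 most abundant falls 48.8% to 51.5% in the 50-day libraries.

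The 40-day libraries, which entered neither mean of the comparison, stood apart from the 50-day libraries more clearly for the falls than for the rises in their median level. The falls had median levels of 24.0, 25.7 and 28.8 FPKM at 40 days, above those of every 50-day library, and held 19.6% ± 1.30 of the summed FPKM. The rises had 5.84, 6.49 and 4.68 FPKM, which overlapped their 50-day range, and held 2.47% ± 0.0186. The 60-day libraries lay between for both sets. Their medians were 15.04, 15.4 and 13.6 FPKM for the rises and 7.44, 6.35 and 9.84 FPKM for the falls, with library c the nearest to the 50-day level in each.

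**Figure D4:**
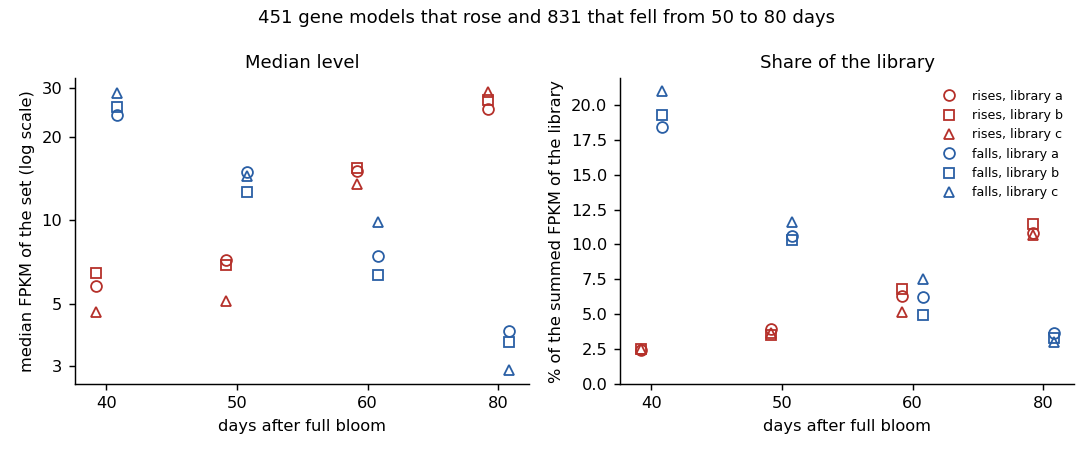
Median FPKM (left, log scale) and share of a library's summed FPKM in percent (right) of the 451 rises (red) and 831 falls (blue) in each library, with circles, squares and triangles for libraries a, b and c and the 4 ages spaced evenly. The falls are highest at 40 days and the median levels of the rises overlap between 40 and 50 days.

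By 60 days, after 10 of the 30 days, the log2 change was about midway. On a scale where the 50-day mean is 0 and the 80-day mean is 1, the median position of the rises was 0.526, 0.552 and 0.365 in the 60-day libraries a, b and c. For the falls it was 0.557, 0.699 and 0.348, so library c lagged in both sets. The 60-day mean lay between the 50- and 80-day means in 387 of the 451 rises and 729 of the 831 falls. It lay past the 80-day mean in 24 rises and 59 falls, and on the far side of 50 days in 40 rises and 43 falls.

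Whether the steps before and after 60 days differed was tested for each gene model in 1 contrast. The contrast gives both end ages equal weight, but it uses the same estimate of each gene model's spread as the main comparison, so the calls are not independent. It was called in 454 of all 13699 gene models, 3.31%, with the 60-day level above the midpoint of the end ages in 1.52% and below it in 1.80%. Among the rises 31 had the larger step before 60 days and 32 after it, and among the falls 37 and 32. That makes 14.0% of all rises and 8.30% of all falls, and 322 of the 12417 gene models not called between 50 and 80 days (2.59%) also passed; what the shared spread adds to these shares was not tested. These numbers were lower without any 1 of the 60-day libraries. Leaving a library out also lowers the precision, and this was not told apart from an effect of that library's values. Without 60-day library c the count over all gene models was 120 and without 60-day library b it was 115. Without library c, 9 rises and 19 falls had the larger step before 60 days and 5 rises and 4 falls after it. Without library b these were 10 and 6 before and 9 and 9 after. The balance among the falls also turned with the setting. It was 80 before and 27 after without 50-day library b, and 27 before and 46 after without 80-day library a. With the 10 most abundant gene models removed it was 37 before and 79 after, with 653 called over all gene models. The count over all gene models was 254 without 60-day library a, 286 without 50-day library a and 302 without 50-day library c. The single steps, which share libraries with the main comparison, were called in 159 rises and 372 falls from 50 to 60 days (1.16% and 2.72%) and 223 rises and 291 falls from 60 to 80 days (1.63% and 2.12%).

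The balance of rises and falls changed with the level of the gene model. Sorted by their mean over the 6 libraries, the 2164 gene models under 3 FPKM held 55 rises and 169 falls, and the 3329 from 3 to 10 FPKM held 118 and 263. The numbers were 98 and 186 of 3781 from 10 to 30 FPKM and 101 and 116 of 2890 from 30 to 100. They were 53 and 56 of 1076 from 100 to 300 and 19 and 29 of 365 from 300 to 1000. At 1000 FPKM or more, 7 of 94 rose and 12 fell. The share of rises was 2.54% under 3 FPKM and 7.45% at 1000 FPKM or more, against 3.29% of all tested. The share of falls was 7.81% under 3 FPKM, 4.01% from 30 to 100 and 12.8% at 1000 FPKM or more, against 6.07% of all tested. This mean is set in part by the change itself, so the classes are not independent of it.

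Small shifts went the other way from the calls at high levels. Over all gene models of a class the log2 difference had a median of -0.11 under 3 FPKM, -0.07 from 3 to 10, 0.03 from 10 to 30, 0.12 from 30 to 100, 0.16 from 100 to 300, 0.17 from 300 to 1000 and 0.24 at 1000 FPKM or more. At 80 days 41.5% of the gene models under 3 FPKM had the higher mean, against 62.8% of those at 1000 FPKM or more. Shifts of this size depend in part on the scaling. Across scalings the median difference over all gene models tested went from -0.05 to 0.04. The class medians were not given under other scalings. The median standard error of a difference was 0.200 under 3 FPKM, 0.158 from 3 to 10, 0.102 from 30 to 100 and 0.166 at 1000 FPKM or more, so the precision was lower at both ends of the range than in the middle.

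**Figure D5:**
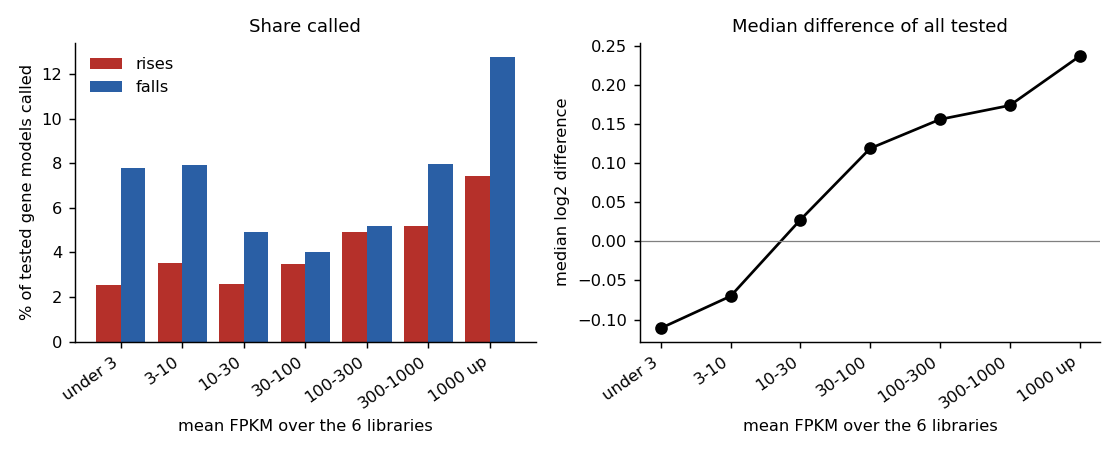
Share of tested gene models called as rises (red) and falls (blue), in percent (left), and the median log2 difference, 80 minus 50 days, of all tested gene models (right), by mean FPKM over the 6 libraries (horizontal axes). Falls exceed rises in every class, with shares nearest to each other from 30 to 300 FPKM, while the median difference goes from -0.11 in the lowest class to 0.24 in the highest.

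Of the 30 gene models with the highest mean over the 6 libraries, 3 rose and 3 fell, and their log2 differences spanned -1.91 to 1.98. Over all gene models tested the shares were 3.29% and 6.07%. Among the first 10 of them, with means of 14189 to 67604 FPKM, 1 rose and 1 fell. The 290 tested gene models that carry a new-gene label held 6 rises and 25 falls, or 2.07% and 8.62%, where 3.29% and 6.07% of all tested gene models rose and fell. Gene models under 1 FPKM in every 50-day library and at 10 FPKM or more in every 80-day library numbered 5, of which VIT_14s0006g02950 is one and 1 belongs to the run of 10. In the other direction 1 was found. With at least 3 FPKM asked for in place of at least 10 FPKM, 19 appeared and 21 disappeared by this rule.

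Calls were spread over the identifier order. By the number that follows VIT_ in the identifier, 00 to 19, rises made up 1.60% to 4.61% of the tested gene models and falls 4.04% to 7.62%. Rises were least frequent where that number is 09, with 8 rises of 499 tested, and most frequent where it is 02, with 24 of 521. No test was made of these shares.

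The same libraries lay farthest along in both sets. Library c was the lowest of the 80-day libraries in 448 of the 831 falls and the highest in 222 of the 451 rises. Library b was the lowest of the 50-day libraries in 424 of the falls and the highest in 192 of the rises, and library c the highest in 362 of the falls and the lowest in 232 of the rises. Among the 36 rises of at least 3 outside the run of 10, the 80-day library b was the lowest of its age in 18. Without 80-day library b, 463 gene models rose and 858 fell. Without 80-day library c, 402 rose and 756 fell.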

How the data were processed

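The authors deposited 1 table of FPKM values for 12 libraries. The submitters' processing notes name TopHat2, Cufflinks, edgeR, FastQC and Trimmomatic 0.36 without saying what each did; for build, annotation and filters, nothing is given in the sources used here. Per the labels' protocols the libraries hold polyadenylated RNA and keep strand. Columns were matched to samples by library code and grouped by age.

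Values were transformed to log2(FPKM + 1). Gene models with at least 1 FPKM in at least 3 of the 6 libraries of 50 and 80 days entered a limma 3.58.1 fit (R 4.3.3) with a mean per age over all 12 libraries, a trended prior and Benjamini-Hochberg adjustment. Library measures were compared with exact permutation tests (scipy 1.17.1). The fit for 80 against 50 days was tried on simulated data for 13699 gene models. The level of each was its mean over all ages, and its spread was limma's estimate, which is drawn toward that of other gene models. The fit recovered 64 of 67 changes of 1.5, 65 of 67 of 2 and 65 of 66 of 3 (log2), with 3 false calls. The simulated noise was normal and independent, so false calls may be understated. Far fewer gene models were changed than the 5869 that passed the adjusted p in the real comparison. The recovery and the false calls therefore do not carry over to it directly.

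Depth is unknown. Ratios of values under 0.5 FPKM were sorted into bins of 0.005 (log2) over 15 pairs of libraries. The fullest bin held 0.751% to 1.88% of gene models. No value for smooth ratios is set beside this, so whether steps of 1 read are present is not known. The identifiers printed are the 2 largest rises and 2 largest falls among calls with a mean of at least 10 FPKM at the age where they are higher and with libraries that do not overlap; 316 rises and 477 falls met this rule. Lists by product name could not be used, since no identifier was matched. The comparison and the rules were chosen with earlier results of these data known. Alternatives covered the pseudocount, filter, scaling, samples in the fit, replicate block, trend and minimum difference. Each library of 50, 60 and 80 days was also left out in turn.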

Additional observations from a re-analysis of the deposited data

How the results depend on the processing

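Leaving out each of the 50-, 60- and 80-day libraries in turn gave 1158 to 1388 gene models changed between 50 and 80 days (384 to 493 rises, 756 to 895 falls). At least 84.3% of the 1282 calls were kept, none with the opposite sign. Leaving out a 60-day library alters the spread but not the difference between 50 and 80 days. The 40-day libraries, which also enter the spread, were not left out. Across scalings the share of rises was 28.7% (10 most abundant gene models removed) to 38.2% (quantile normalization), and the median difference of all gene models -0.05 to 0.04. With no minimum difference the counts were 5869 (3156 rises, 2713 falls), 2325 for 60 against 50 days, 2989 for 80 against 60 days and 781 for the difference between the steps. With a minimum of 2 they were 276 (110 rises, 166 falls), 87, 78 and 150. Only 10303 gene models have a mean of 5 FPKM or more, and 540 falls were called among them. Leaving out 50-day library c gave 341 calls for 60 against 50 days, and leaving out 60-day library b gave 330, against 531. Leaving out each of the 50-, 60- and 80-day libraries gave 330 to 637 calls for this step. It gave 336 to 586 for 80 against 60 days, against 514 (336 without 60-day library c), and 115 to 619 for the difference between the steps, against 454. With the letter as a replicate block 1283 gene models were called (452 rises, 831 falls), 512 and 510 for the single steps and 407 for their difference. Letters did not pair the libraries: deviations correlated at -0.14, -0.16 and 0.03 for the same letter and -0.10 to 0.25 for different letters. VIT_14s0006g02950, VIT_12s0057g00100 and VIT_13s0064g01260 kept direction and call in all 20 alternatives each, which their size makes likely; VIT_00s2887g00010 did so in 16. Depth is unknown, so the part of counting error in the spread of low gene models is not known.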
